A study of Mus musculus with 8 samples.

Results

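Smyd1, Unc45b and the chaperones that act on muscle proteins were examined as a set of 9 genes among the 20701 gene symbols measured. The set was defined by symbol and held Smyd1, Unc45b, Unc45a, Hsp90aa1, Hsp90ab1, Hspb1, Hspb7, Cryab and Bag3. All 9 were found, in 13 transcript entries, and for each symbol the entry with the highest read count summed over all embryos was used. Of these genes, 4 are largely restricted to striated muscle or enriched there (Smyd1, Unc45b, Hspb7 and Cryab), and 5 are broadly expressed (Unc45a, Hsp90aa1, Hsp90ab1, Hspb1 and Bag3). Broad expression does not mean absence from muscle, and levels in other tissues were not measured here. The genes, and their split into 4 and 5, were chosen with results of these embryos already known. Their values, and the contrast between the 4 and the 5, therefore describe these embryos and are not an independent test.

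RNA was sequenced from dissected pharyngeal mesoderm and hearts of C57BL/6 mouse embryos at E8.75 (6 somites), with 4 Isl1 knockout (Isl1-/-) and 4 wild-type embryos, and 1 embryo per library. Isl1 is a LIM-homeodomain transcription factor of cardiac progenitors, and the comparison asked how its loss changed expression in the forming heart. Read counts summed over the transcript kept for each symbol ranged from 23480470 to 26153039 in wild-type and from 18916452 to 25047013 in knockout embryos. They are not the full sequencing depth. By its labels, knockout embryo 2 was the one library of total RNA, the 7 others being polyA RNA. The authors describe no separate preparation for this embryo, so the label may be an error. Wild-type embryos 1 to 4 held Isl1, the deleted gene, at 9.72, 9.76, 26.9 and 23.3 CPM (counts per 1000000 reads, scaled by TMM), and knockout embryos 1 to 4 at 2.32, 2.16, 1.78 and 2.40 CPM. Wild-type embryo 3 stood apart from its group: the summed level of 14 cardiomyocyte markers was 3709 CPM there against 4913 to 5403 CPM in the other wild-type embryos and 2139 to 3023 CPM in the knockout embryos, and the summed level of 8 primitive erythroid markers was 370 CPM there against 1175 to 2367 CPM. Where leaving out this embryo changed the call of a named gene, the value without it is given beside the result.

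The myosin heavy chain does not fold unaided. Its motor domain is folded by UNC45 proteins, which bind myosin through a UCS domain and recruit HSP90 through a TPR domain. Vertebrates have a general form, Unc45a, and a striated muscle form, Unc45b. Smyd1 is a SET and MYND domain lysine methyltransferase of heart and skeletal muscle that also associates with myosin and with the UNC45b and HSP90 machinery, and its loss blocks growth of the right ventricle and assembly of sarcomeres. The small heat shock proteins Hspb1, Hspb7 and Cryab hold unfolded proteins in a soluble state, and Cryab and Hspb7 bind titin and filamin at the Z-disc and I-band. Bag3 couples small heat shock proteins to HSP70 for the removal of damaged filamin.

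RefSeq promoters (GRCm38.p6, 250 bases before to 50 after the start site) were at hand for 6 of the 9 genes, namely Smyd1, Unc45b, Hspb7, Unc45a, Hspb1 and Bag3. Those of Smyd1 and of the Unc45b and Unc45a pair are shown because Smyd1 and Unc45b fell in the knockout and the general relative did not pass the test, and that of Hspb1 because it held heat shock elements. They are written 5′ to 3′ on the strand of the gene, and capitals mark heat shock elements. Their positions are chr6:71262232-71262531 (minus strand) for Smyd1, chr11:82911003-82911302 (plus strand) for Unc45b, chr7:80340170-80340469 (minus strand) for Unc45a and chr5:135887669-135887968 (plus strand) for Hspb1.
Smyd1: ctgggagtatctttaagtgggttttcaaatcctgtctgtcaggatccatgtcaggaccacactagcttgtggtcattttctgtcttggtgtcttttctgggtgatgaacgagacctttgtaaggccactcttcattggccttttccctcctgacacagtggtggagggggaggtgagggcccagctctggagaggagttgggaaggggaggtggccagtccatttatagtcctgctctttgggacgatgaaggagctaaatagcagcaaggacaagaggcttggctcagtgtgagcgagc
Unc45b: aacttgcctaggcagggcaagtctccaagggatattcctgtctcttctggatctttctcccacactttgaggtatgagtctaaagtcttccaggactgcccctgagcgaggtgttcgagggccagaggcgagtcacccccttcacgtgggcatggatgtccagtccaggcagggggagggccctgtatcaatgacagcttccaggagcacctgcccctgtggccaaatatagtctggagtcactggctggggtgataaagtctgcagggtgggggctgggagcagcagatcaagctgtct
Unc45a: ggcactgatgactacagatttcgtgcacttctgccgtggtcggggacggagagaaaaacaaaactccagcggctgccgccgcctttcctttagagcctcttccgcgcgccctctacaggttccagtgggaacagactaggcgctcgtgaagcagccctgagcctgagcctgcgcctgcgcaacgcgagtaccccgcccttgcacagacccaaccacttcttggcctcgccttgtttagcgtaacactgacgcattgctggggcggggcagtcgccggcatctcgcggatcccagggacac
Hspb1: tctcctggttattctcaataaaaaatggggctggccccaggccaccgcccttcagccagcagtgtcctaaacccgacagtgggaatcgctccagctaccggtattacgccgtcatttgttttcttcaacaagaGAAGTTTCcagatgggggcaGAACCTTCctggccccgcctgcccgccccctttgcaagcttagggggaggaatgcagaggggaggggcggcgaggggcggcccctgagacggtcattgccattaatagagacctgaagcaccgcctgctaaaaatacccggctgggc

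A heat shock element, searched as GAANNTTC or TTCNNGAA on both strands, was in the promoters of 2 of the 6 genes, Hspb1 and Bag3, and in 15.1% of 32851 promoters of the same length. In Hspb1 it lay at bases -117 to -110 and -97 to -90 from the start site, and in Bag3 at bases 43 to 50. An E-box (CANNTG) was in 3 of the 6, Unc45b, Hspb7 and Hspb1, and in 72.3% of all promoters. In Unc45b the E-boxes were cacgtg at bases -108 to -103 and cacctg at -43 to -38, and in Hspb1 one of the E-boxes began on the base after a heat shock element. The SRF CArG box, the MEF2 site and the GATA motif AGATAA were in 0 of the 6, against 1.63%, 3.19% and 11.2% of all promoters, which says only that these letters were not in the windows searched. The GC content was 52.0% for Smyd1, 57.0% for Unc45b, 53.7% for Hspb7, 62.0% for Unc45a, 58.3% for Hspb1 and 64.3% for Bag3.

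The muscle methyltransferase and the muscle myosin chaperone both fell in the knockout, to 45.8% and 55.3% of the wild-type mean. Smyd1 (NM_001160127, chromosome 6, 71163934 to 71272227, minus strand, mm9) measured 93.3, 99.3, 83.1 and 91.8 CPM in the wild-type embryos, numbered 1 to 4 here and throughout, against 47.0, 38.8, 43.4 and 39.3 CPM in the knockouts. Every knockout embryo was below every wild-type embryo, with a wide gap between the groups. The mean fell from 91.9 ± 6.67 to 42.1 ± 3.85 CPM (SD, n = 4 each). The log2 fold change was -1.13 (SE 0.085, 95% interval -1.31 to -0.94, edgeR quasi-likelihood FDR 0.00174), which had the lowest p-value of all 14075 genes fitted. Without knockout embryo 2, the library labelled total RNA, Smyd1 was at -1.08 (edgeR FDR 0.00480). The other Smyd1 transcript, NM_009762, shares most of its reads with this one and gave -1.11.

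Unc45b (NM_178680, chromosome 11, 82724052 to 82756905, plus strand) was at 101.8, 104.2, 90.3 and 94.3 CPM in wild-type embryos and at 59.9, 48.6, 57.7 and 49.9 CPM in knockout embryos. The groups did not overlap here either. The mean fell from 97.7 ± 6.45 to 54.0 ± 5.62 CPM, with a log2 fold change of -0.85 (SE 0.086, 95% interval -1.05 to -0.66, edgeR FDR 0.00212). Reads were counted on both strands, and Unc45b shares 255 exonic bases with Gm12575 and 151 with 1700003F17Rik, both on the opposite strand, so reads of these could not be told apart from those of Unc45b. The genes Krcc1 and Gm1070 lie within the span of Smyd1 on the opposite strand and share 0 exonic bases with it.

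The general relative did not pass the test. Unc45a (NM_133952, chromosome 7, 87470178 to 87485891, minus strand) was at 36.8, 39.1, 45.6 and 36.5 CPM in wild-type embryos and at 36.1, 40.6, 35.7 and 33.6 CPM in knockout embryos, and the groups overlapped. Its log2 fold change was -0.11 with a 95% interval of -0.33 to 0.10 (edgeR FDR 0.58), and -0.04 without wild-type embryo 3. Within each embryo the log2 ratio of Unc45b to Unc45a was 1.46, 1.40, 0.98 and 1.36 in wild type and 0.72, 0.26, 0.68 and 0.56 in the knockout. The ratio was therefore lower in every knockout embryo, by 0.74 on the log2 scale on average. By an exact permutation test, two-sided, p was 0.0286, which is as low as 4 against 4 embryos can reach, and 0.0952 after Benjamini-Hochberg adjustment over the 10 ratios compared, so it did not pass the threshold of 0.05 after adjustment.

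**Figure D1:**
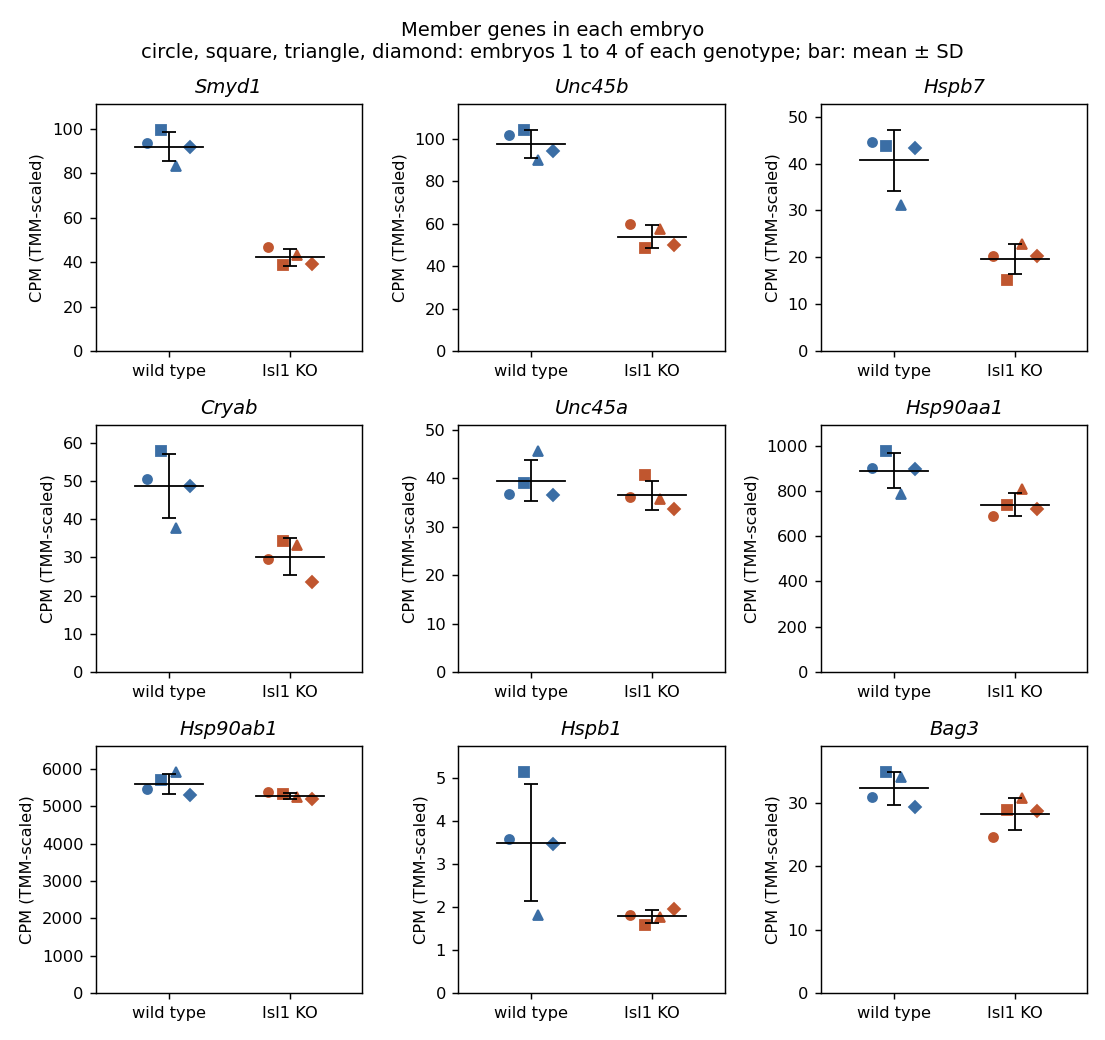
Level of each of the 9 genes in CPM, scaled by TMM, on linear axes from 0, for 4 wild-type (blue) and 4 Isl1 knockout (orange) embryos. Points are embryos, horizontal bars are means and whiskers are SD (n = 4). Smyd1, Unc45b, Hspb7 and Cryab were lower in every knockout than in every wild-type embryo, and the 5 others overlapped.

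Among the small heat shock proteins, Hspb7 (NM_013868, chromosome 4, 140976694 to 140981226, plus strand) was at 44.7, 43.8, 31.1 and 43.2 CPM in wild-type embryos and at 20.3, 15.3, 22.7 and 20.2 CPM in knockout embryos. Wild-type embryo 3 was the lowest of its group but still above all knockout embryos. The mean fell from 40.7 ± 6.44 to 19.6 ± 3.14 CPM, with a log2 fold change of -1.05 (SE 0.15, 95% interval -1.38 to -0.72, edgeR FDR 0.00946). Cryab (NM_001289782, chromosome 9, 50560863 to 50564738, plus strand), which encodes alphaB-crystallin, was at 50.5, 57.8, 37.8 and 48.8 CPM in wild type and at 29.6, 34.2, 33.4 and 23.4 CPM in the knockout. Its groups did not overlap, but wild-type embryo 3 lay close to the highest knockout embryo. The log2 fold change was -0.69 (SE 0.15, 95% interval -1.03 to -0.36) and did not pass the threshold (edgeR FDR 0.0660). Without wild-type embryo 3 it was -0.80 and passed (edgeR FDR 0.0183). Without any other single embryo Cryab did not pass (edgeR FDR up to 0.187).

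Hspb1 (NM_013560, chromosome 5, 136363789 to 136365433, plus strand), also called HSP25 or HSP27, was weakly expressed. It was at 3.59, 5.14, 1.81 and 3.46 CPM in wild-type embryos and at 1.82, 1.58, 1.78 and 1.96 CPM in knockout embryos, from 34 to 116 reads per library. Wild-type embryo 3 lay among the knockout embryos and the other wild-type embryos lay above them. The log2 fold change of -0.97 had a wide 95% interval, -1.61 to -0.34, and did not pass (edgeR FDR 0.135), whereas without wild-type embryo 3 it was -1.19 (edgeR FDR 0.0198). Without any other single embryo Hspb1 did not pass (edgeR FDR up to 0.312). The log2 ratio of Hspb7 to Hspb1 was 3.42 ± 0.33 in wild type and 3.13 ± 0.18 in the knockout (SD, n = 4 each), a difference of -0.29 (exact permutation p = 0.1714, adjusted 0.245). For Cryab to Hspb1 the difference was 0.06 (exact permutation p = 0.8286). Without wild-type embryo 3 these differences were -0.17 and 0.19 (exact permutation p = 0.3429 and 0.4571). Unlike the Unc45b and Unc45a pair, therefore, these ratios did not separate the genotypes, and at the read counts of Hspb1 they varied widely between embryos.

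The HSP90 genes and Bag3 did not pass the test with all 8 embryos. Hsp90aa1 (NM_010480, chromosome 12, 111928815 to 111940938, minus strand), the inducible cytosolic HSP90, was at 903, 976, 787 and 895 CPM in wild type and at 690, 738, 808 and 722 CPM in the knockout. The groups overlapped only because wild-type embryo 3 was below knockout embryo 3. Its log2 fold change was -0.27 (95% interval -0.44 to -0.09, edgeR FDR 0.137), and without wild-type embryo 3 it was -0.32 (edgeR FDR 0.0424). Without any other single embryo Hsp90aa1 did not pass (edgeR FDR up to 0.325).

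Hsp90ab1 (NM_008302, chromosome 17, 45704724 to 45710220, minus strand), the constitutive form, was at 5458, 5701, 5916 and 5304 CPM in wild type and at 5375, 5318, 5245 and 5188 CPM in the knockout, with overlapping groups. The log2 fold change was -0.08 with a narrow interval, -0.22 to 0.05 (edgeR FDR 0.507). How reads shared with processed copies of HSP90 genes were counted was not stated. Bag3 (NM_013863, chromosome 7, 135667097 to 135690491, plus strand) was at 30.9, 34.9, 34.1 and 29.3 CPM in wild type and at 24.7, 28.9, 30.8 and 28.7 CPM in the knockout. Its groups overlapped as well, and its log2 fold change was -0.19 (95% interval -0.40 to 0.02, edgeR FDR 0.327). The log2 ratio of Hsp90aa1 to Hsp90ab1 was -2.65 ± 0.17 in wild type and -2.84 ± 0.11 in the knockout (exact permutation p = 0.1143), with overlapping groups. Without wild-type embryo 3 the ratio ran from -2.60 to -2.55 in wild type and from -2.96 to -2.70 in the knockout, without overlap, and the difference went from -0.18 to -0.27 (exact permutation p = 0.0571, the smallest that 3 against 4 allow).

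In all, 3 of the 9 genes passed an FDR of 0.05, each lower in the knockout. By the same rule 0.973% of all genes fitted were called, 0.867% lower and 0.107% higher. These were 3 of the 4 muscle genes and 0 of the 5 broadly expressed genes. Without wild-type embryo 3 the count was 6 of the 9, with Cryab, Hspb1 and Hsp90aa1 added. Over all genes the count then went from 137 of 14075 to 490 of 14179. By unadjusted p under 0.05 all 4 muscle genes and 2 of the 5 broadly expressed genes, Hspb1 and Hsp90aa1, were called, against 17.4% of all genes, and DESeq2 called Hsp90aa1 but none of the other 4. The 4 muscle genes were those whose genotypes did not overlap, and of all genes 6.33% were lower and 3.96% higher without overlap. The median log2 fold change was -0.95 over the 4 muscle genes and -0.19 over the 5 others, beside 0.01 over all genes. The authors' thresholds, a 1.5-fold change with an unadjusted p under 0.05, were applied here to edgeR results for the transcript kept per symbol. The authors themselves used DESeq2, so these are not their calls. By these thresholds 5 of the 9 were lower (Smyd1, Unc45b, Hspb7, Cryab and Hspb1), beside 2.26% of all genes lower and 3.93% called in either direction.

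**Figure D2:**
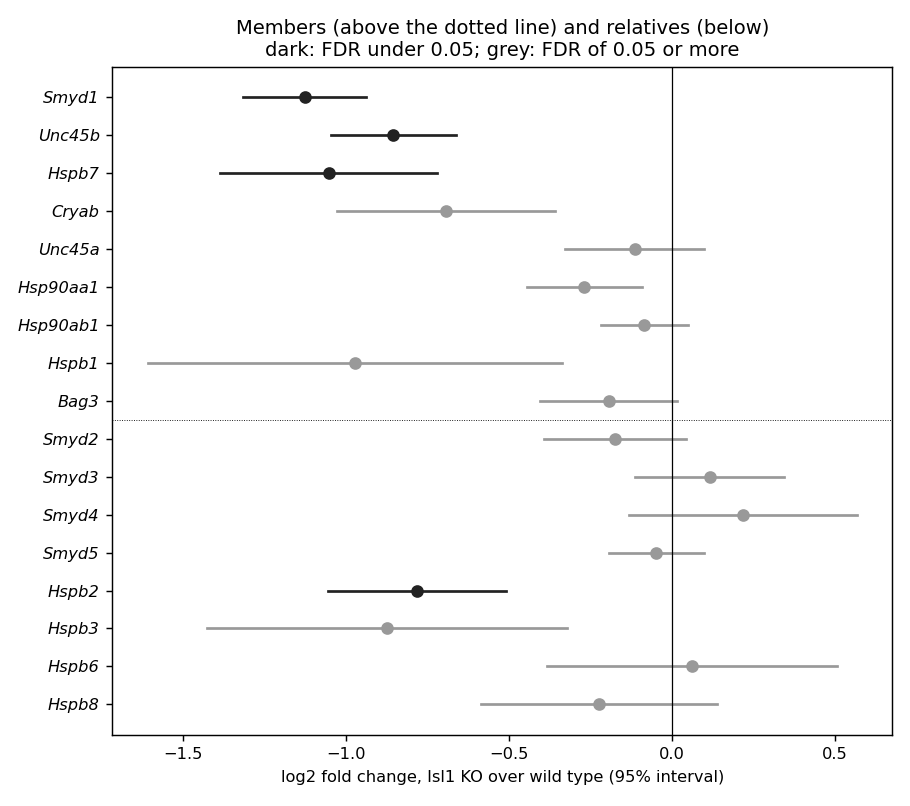
Log2 fold change of Isl1 knockout over wild type (n = 4 each) with its 95% interval from edgeR, for the 9 genes above the dotted line and 8 further SMYD and small heat shock protein genes below it. Dark symbols passed an FDR of 0.05: Smyd1 at -1.13, Unc45b at -0.85, Hspb7 at -1.05 and Hspb2 at -0.78.

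Levels per transcript length were compared on the deposited RPKM scale. In wild type the mean level fell in the order Hsp90ab1 (1302 ± 59.0 RPKM), Hsp90aa1 (182 ± 14.4), Cryab (25.5 ± 4.07), Unc45b (16.1 ± 0.818), Smyd1 (15.9 ± 1.01), Hspb7 (8.55 ± 1.32), Bag3 (7.25 ± 0.506), Unc45a (7.08 ± 0.782) and Hspb1 (2.26 ± 0.850). Unc45b and Smyd1 differed by less than their SD, and so did Bag3 and Unc45a, while Hspb7 and Bag3 differed by about the SD of Hspb7. Hsp90ab1 and Hsp90aa1 stood far above the rest. In the knockout Unc45b was at 9.25 ± 1.03 RPKM and Smyd1 at 7.60 ± 0.753, close to Unc45a at 6.80 ± 0.477 and Bag3 at 6.60 ± 0.564, and Hspb7 was at 4.29 ± 0.713. The muscle form of UNC45 was thus above the general form per length in both genotypes.

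Smyd1 was the one SMYD gene called. Smyd2, a methyltransferase that also acts in the cytoplasm on HSP90, was at 51.7, 56.7, 41.3 and 51.8 CPM in wild type and at 45.0, 44.6, 46.7 and 42.4 CPM in the knockout, with overlap (log2 fold change -0.17, 95% interval -0.39 to 0.04, edgeR FDR 0.390). Smyd3, Smyd4 and Smyd5 had log2 fold changes of 0.12, 0.22 and -0.05, with edgeR FDRs of 0.599, 0.505 and 0.755. The ratio to Smyd2 compares Smyd1 with a relative inside the same library. This log2 ratio was 0.85, 0.80, 1.0 and 0.82 in wild type and 0.06, -0.20, -0.10 and -0.11 in the knockout. All knockout ratios were below all wild-type ratios, by 0.95 on average (exact permutation p = 0.0286, adjusted 0.0952). The ratio to Smyd3 also separated the groups, with a difference of -1.23 and the same p-values.

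**Figure D3:**
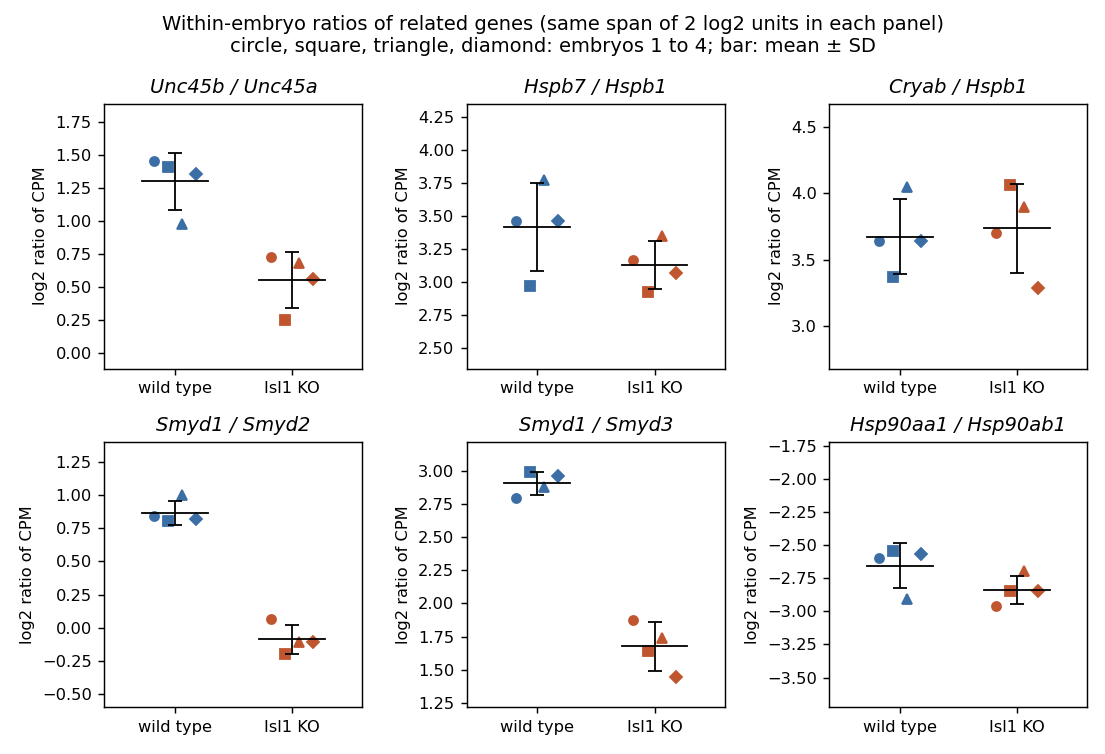
Log2 ratio of CPM of related genes within each embryo, in 4 wild-type (blue) and 4 Isl1 knockout (orange) embryos; each panel spans the same range, points are embryos, and bars are mean ± SD. The ratios of Unc45b to Unc45a, Smyd1 to Smyd2 and Smyd1 to Smyd3 did not overlap between genotypes, and the 3 other ratios did.

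The family of small heat shock proteins was mixed. Of 10 listed genes 8 could be tested, since Cryaa and Hspb9 had too few reads, and 2 of these 8 fell, Hspb7 and Hspb2, while 0 rose. Hspb2, a muscle-enriched member, starts 403 bases from Cryab on the opposite strand and is transcribed away from it. It was at 10.5, 9.76, 9.73 and 10.8 CPM in wild type and at 6.26, 5.26, 6.80 and 5.43 CPM in the knockout, without overlap (log2 fold change -0.78, SE 0.12, edgeR FDR 0.0159), and did not pass without wild-type embryo 1 or 4 or knockout embryo 4 (edgeR FDR up to 0.0699). Hspb3, another muscle member, had 12 to 52 reads per library and a log2 fold change of -0.87 (edgeR FDR 0.128). Hspb6 and Hspb8, at 0.06 and -0.22, did not pass (edgeR FDR 0.899 and 0.513). The median over the 8 tested was -0.74, and over the 5 that are not among the 9 genes it was -0.22.

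Other parts of the folding machinery were described with lists of chaperone genes. Of 37 HSP90 family genes and co-chaperones, 2 fell: Unc45b and Ppid, the TPR cyclophilin CYP40. Ppid went from 247 ± 22.0 to 192 ± 3.29 CPM (log2 fold change -0.36, edgeR FDR 0.0415), a call lost when any embryo other than wild-type embryo 3 was left out (edgeR FDR up to 0.137). Of the 37, 33 had a negative fold change and the median was -0.13. The HSP70, HSP110 and BAG list had 0 of 24 past the FDR in edgeR and in DESeq2 (5 at an unadjusted p under 0.05) and a median of -0.10. Its lowest p belonged to Hspa8, the constitutive HSP70, at 1847 ± 321 and 1330 ± 282 CPM with overlapping groups (log2 fold change -0.47, edgeR FDR 0.195).

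Among 20 J-domain proteins, the partners that stimulate HSP70, Dnaja1 fell by 0.37 on the log2 scale (edgeR FDR 0.0477), a call likewise lost when any of those embryos was left out (edgeR FDR up to 0.167), and the median was -0.16. The chaperonin and prefoldin list, whose cytosolic members serve actin and tubulin, had 0 of 18 past the FDR in edgeR, with 7 at an unadjusted p under 0.05 and 2 called by DESeq2. All 18 fold changes were negative, although small, with a median of -0.19. Hspd1, the mitochondrial HSP60, had the lowest p in this list (log2 fold change -0.27, edgeR FDR 0.0863). The heat shock factors and ER stress genes had 0 of 16 past the FDR in edgeR (6 at an unadjusted p under 0.05 and 1 in DESeq2) and a median of -0.12, with Atf4 at -0.59 (edgeR FDR 0.135), which without wild-type embryo 3 was -0.72 and passed (edgeR FDR 0.0274). Without any other single embryo Atf4 did not pass (edgeR FDR up to 0.336). The mean log2 CPM of the chaperonin list ran from 7.91 to 8.23 in wild type, where embryo 3 was the lowest, and from 7.86 to 8.05 in the knockout, and those of the HSP70 and the stress lists overlapped likewise. The other lists did not overlap: the mean log2 CPM of the HSP90 list ran from 7.15 to 7.27 in wild type and from 7.04 to 7.12 in the knockout, and that of the J-domain list from 5.74 to 5.92 and from 5.57 to 5.71. The SMYD, small heat shock protein, muscle protein turnover and thick filament lists, several of which hold genes called above, were also lower in every knockout than in every wild-type embryo. These means include the called genes. In the SMYD list the 4 genes other than Smyd1 had a median log2 fold change of 0.035. Without wild-type embryo 3 the counts past the FDR were 7 in the HSP90 list, 3 among J-domain proteins, 2 among chaperonins, 1 among the stress genes and 4 among small heat shock proteins, and stayed at 0 in the HSP70 list, while 490 genes passed in all. The background for the edgeR counts with all embryos is the 0.867% of all genes called lower. Without wild-type embryo 3, 384 of 14179 genes were called lower, and with DESeq2 468 of 14075. For the counts at an unadjusted p under 0.05 the share of all genes was 17.4%.

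**Figure D4:**
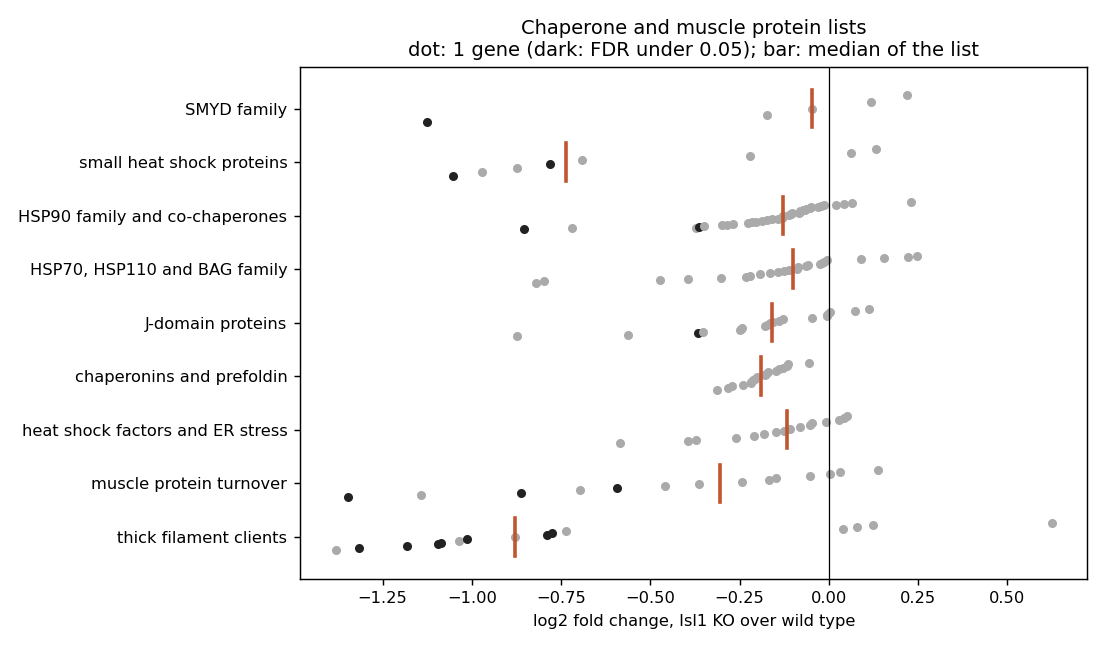
Log2 fold change of Isl1 knockout over wild type for each tested gene of 9 lists; dots are genes, dark where the FDR was under 0.05, and orange bars are list medians. The medians ran from -0.88 for thick filament clients to -0.05 for the SMYD family, and general chaperone lists lay between -0.19 and -0.10.

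The thick filament holds the myosin that these chaperones fold. Of 15 tested genes of this filament, 7 fell and 0 rose, with a median of -0.88. The count was 10 without wild-type embryo 3, 4 without wild-type embryo 1, 2 or 4 or knockout embryo 4, and 5 to 7 without any other. They were the myosin heavy chains Myh6 (-1.09) and Myh7 (-1.18), the light chains Myl7 (-0.79), Myl4 (-0.78) and Myl3 (-1.09), myosin binding protein Mybpc3 (-1.01) and the M-band protein Myom1 (-1.32), with edgeR FDRs from 0.00453 to 0.0358. Of the 7, Myh6, Myh7, Myl7, Myl4 and Myl3 are also among the cardiomyocyte markers below. The call of Myl4 was lost when any embryo other than wild-type embryo 3 was left out (edgeR FDR up to 0.135), that of Myh6 without wild-type embryo 1, 2 or 4 or knockout embryo 1 or 4 (up to 0.0986), and that of Myl3 without wild-type embryo 1, 2 or 4 or knockout embryo 4 (up to 0.0740). Myh7 was at 465 ± 35.1 CPM in wild type and 205 ± 46.5 CPM in the knockout. Of 14 genes of muscle protein turnover, 3 fell: Trim55, a sarcomeric MURF ubiquitin ligase (-0.86, edgeR FDR 0.0480), Fbxo32, the ligase atrogin-1 (-0.59, edgeR FDR 0.0123), and Synpo2, a Z-disc partner of Bag3 (-1.35, edgeR FDR 0.00186). Trim55 was lost when any embryo other than wild-type embryo 3 was left out (edgeR FDR up to 0.170), and Fbxo32 without wild-type embryo 1 (edgeR FDR 0.0570). The general turnover genes Vcp, Sqstm1 and Ufd1l, named after their values were seen, were at -0.15, 0.03 and -0.24 (edgeR FDR 0.234, 0.901 and 0.216). Vcp was nonetheless lower in every knockout than in every wild-type embryo. Of the 14 fold changes in this list 11 were negative and 3 positive, with a median of -0.30.

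The muscle genes were set against the amount of cardiomyocyte RNA in each library. Of 14 cardiomyocyte markers 12 fell, with a median log2 fold change of -0.98 and all 14 fold changes negative, and their summed level was 3709 to 5403 CPM in wild type and 2139 to 3023 CPM in the knockout. The count past the FDR depended on single embryos: it was 4 without wild-type embryo 1, wild-type embryo 2 or knockout embryo 4, 5 without wild-type embryo 4, 6 without knockout embryo 1, 8 without knockout embryo 2 or 3, and 14 without wild-type embryo 3, while the median stayed between -1.09 and -0.88. In bulk tissue fewer cardiomyocytes and less RNA per cardiomyocyte cannot be told apart. Relative to the mean log2 level of the markers in the same embryo, Smyd1 differed between genotypes by -0.18 (exact permutation p = 0.2857), Unc45b by 0.09 (p = 0.5429, exact permutation), Hspb7 by -0.09 (p = 0.1714, exact permutation) and Cryab by 0.26 (p = 0.1429, exact permutation). The genotypes overlapped in all 4 of these ratios. Without wild-type embryo 3 the Smyd1 ratio differed by -0.07 (exact permutation p = 0.5714), the Unc45b ratio by 0.21 (exact permutation p = 0.0571, the smallest that 3 against 4 allow), the Hspb7 ratio by -0.06 (exact permutation p = 0.3429) and the Cryab ratio by 0.30 (exact permutation p = 0.1143).

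**Figure D5:**
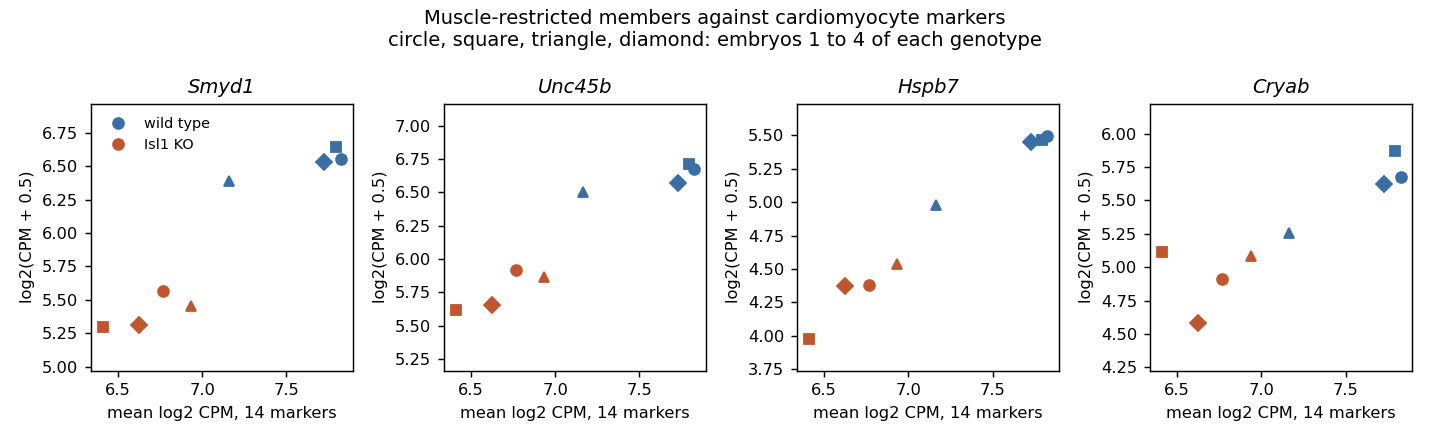
Level of Smyd1, Unc45b, Hspb7 and Cryab, as log2(CPM + 0.5), against the mean log2 level of 14 cardiomyocyte markers in the same embryo (4 wild-type in blue, 4 Isl1 knockout in orange). Wild-type embryo 3, the blue triangle, has the lowest marker level of its group, 7.16, and the knockout embryos lie between 6.41 and 6.94.

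Skeletal muscle, in which the same 4 genes are also expressed, was examined with 12 markers, some of which the early heart also uses. Myod1, Myog, Myf6 and Ckm had at most 5 reads in any library. Others were higher, with wild-type means of 85.2 CPM for Acta1, 34.5 for Pax3, 14.8 for Pax7 and 10.4 for Myl1. The summed level of the 12 ran from 119 to 184 CPM in wild type and from 112 to 136 CPM in the knockout. Of these markers 0 of the 8 that could be tested passed the FDR in edgeR (2 at an unadjusted p under 0.05). These 2 were Acta1 at -0.86 and Tnnt1 at -0.82, both without overlap (edgeR FDR 0.0587 and 0.0622). Of the 8 fold changes 4 were negative and 4 positive. The summed primitive erythroid markers ran from 370 to 2367 CPM in wild type and from 1258 to 3129 CPM in the knockout. The 9 endoderm markers ran from 422 to 1421 and from 379 to 2096 CPM, the 7 endothelial markers from 341 to 441 and from 275 to 399 CPM, and the 8 neural and neural crest markers from 312 to 357 and from 307 to 423 CPM. Each of these ranges overlapped between genotypes, and their part in the results was not tested.

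Genes that varied like Smyd1 and Unc45b within a genotype were sought among 11043 genes with a mean of at least 5 CPM, as a description over 8 embryos from log2 CPM centred on the mean of each genotype. Smyd1 and Unc45b followed each other with a Pearson correlation of 0.95. For Smyd1 the highest were Cnn1 (0.974), which encodes the smooth muscle protein calponin 1, Zc3hc1 (0.966), Sh3bgr (0.964), Hcn4 (0.958), a pacemaker channel, and Chd1l (0.956). For Unc45b they were Chd1l (0.973), Mrpl2 (0.967), Poc1a (0.960), Trappc6a (0.956) and 3110043O21Rik (0.951). The libraries share depth and dissection, and few embryos enter each value. With Smyd1 the correlation was 0.72 for Hspb7, 0.65 for Hspb1, 0.55 for Cryab and 0.43 for Hsp90aa1, and it was -0.12 for Hsp90ab1, -0.35 for Bag3 and -0.47 for Unc45a.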

How the data were processed

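RNA-seq libraries of 8 embryos were grouped by the genotype in the sample titles. Each library was prepared by the authors from 100 ng of RNA. Reads were aligned to mm9 by STAR, allowing introns of 20 to 500000 bases, and HOMER counted exonic reads of either strand per RefSeq transcript; versions were not given in the sources used here. The deposited counts were raw read counts for 31507 transcripts. The deposited RPKM values were computed by the authors with edgeR, per kilobase of transcript and per 1000000 counted reads. Deposited columns of the authors' own DESeq2 comparison (fold changes, p-values) were not used.

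One transcript per symbol was kept. The test was run with edgeR 4.0.16 under R 4.3.3 (filterByExpr, TMM, quasi-likelihood test, genotype as the single term) over 14075 genes, two-sided, with Benjamini-Hochberg adjustment over all genes (FDR, threshold 0.05). DESeq2 1.42.0 and limma 3.58.1 were alternatives. Replicates were separate embryos, and no pair of libraries agreed within counting noise. At these depths intervals cover the spread between embryos, and reads without molecular identifiers limit counting precision for genes of few reads, such as Hspb1. Ratios used log2(CPM + 0.5) and exact two-sided permutation tests. Gene positions are those of GENCODE vM1 (NCBIM37, identical to mm9). The quasi-likelihood script was tested on simulated counts. Tables were made with Python 3.11.15.

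The members and lists were chosen with earlier results of these data known. Named were Isl1, the 9 genes, their SMYD and small heat shock relatives, list genes past the FDR, otherwise the gene of lowest p in a list, and the 5 genes most like Smyd1 and Unc45b. Alternatives changed the scaling, test, filter, transcript choice, model or pseudocount, or left out 1 embryo.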

Additional observations from a re-analysis of the deposited data

Results flagged for a closer look

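A gap test was run on each member and ratio within each genotype (38 groups of 4), and chance flags about 1 in 20 groups. It marked 3 values, all from wild-type embryo 3. Hspb7 was at 31.1 CPM there and at 43.2 to 44.7 CPM in the other wild-type embryos. The log2 ratio of Hsp90aa1 to Hsp90ab1 was -2.91 there and -2.60 to -2.55 in the others. The log2 level of Unc45b relative to the cardiomyocyte markers was -0.66 there and -1.16 to -1.08 in the others.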

How the results depend on the processing

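Smyd1, Unc45b and Hspb7 stayed past the FDR in each of 17 alternative fits. Their log2 fold changes ran, over the fits that left out 1 embryo, from -1.18 to -1.08 for Smyd1, -0.91 to -0.80 for Unc45b and -1.16 to -0.94 for Hspb7, and over the other fits from -1.16 to -0.98, -0.89 to -0.74 and -1.21 to -0.85. Unc45a, Hsp90ab1 and Bag3 passed in 0 of the 17. Cryab passed with DESeq2 (-0.68, adjusted p 0.00063) and without wild-type embryo 3, and ran from -0.80 to -0.59 when 1 embryo was left out. Hsp90aa1 passed in the same fits (-0.26 with DESeq2, adjusted p 0.0239; -0.32 to -0.22 when 1 embryo was left out), and Hspb1 passed without wild-type embryo 3 (-1.19 to -0.73 when 1 embryo was left out). The number of the 9 genes called was 5 with DESeq2, 5 by the authors' thresholds applied to edgeR p-values, and 3 to 6 when 1 embryo was left out. The number of all genes called was 709 with DESeq2, 553 by those thresholds in edgeR and 70 to 490 when 1 embryo was left out, highest without wild-type embryo 3. The causes of these changes were not tested. Ratio tests could not reach 0.05 without 1 embryo (smallest exact p 0.0571).

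The labels do not say whether replicate numbers pair the embryos. Deviations of same-numbered embryos correlated between 0.0577 and 0.543 (mean 0.231), and 2 of 8 embryos correlated best with their own number. With so few embryos this cannot show whether same-numbered embryos shared a litter or batch. With the number as a replicate block, 76 genes were called, 3 of the 9 and 4 of the 14 cardiomyocyte markers among them, the former at FDRs of 0.00676 for Smyd1, 0.0126 for Unc45b and 0.0482 for Hspb7.

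Ppid, Dnaja1 and Trim55 each passed in 6 of the 17 fits, Myl4 in 7, Myh6 in 11, Myl3 in 12, Hspb2 in 13 and Fbxo32 in 14. Reads of 4 Y-linked genes were high in wild-type embryo 4 and knockout embryos 1, 3 and 4, so they were unevenly spread over the genotypes. With a term for these reads, 107 genes were called, 3 of the 9 among them. Hspb6 turned sign with that term (-0.14) and without knockout embryo 1 (-0.0191 to 0.193 when 1 embryo was left out). Smyd5 turned sign in limma on log2(RPKM + 1) and on log2(RPKM + 0.1) (0.0076 and 0.0078). List medians over all fits ran from -0.25 to -0.13 for chaperonins, -0.14 to -0.04 for the HSP70 list, -0.16 to -0.07 for the HSP90 list and -0.21 to -0.09 for J-domain proteins. The past-FDR count of the HSP90 list ran from 1 to 9 and that of J-domain proteins from 0 to 5. Depth limits Hspb1, Hspb3 and Hspb6, with fewer than 120 reads in every library.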
